A study of Mus musculus with 60 samples.

Results

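The probe sets described here measured the chains of antibodies in mouse lung. They were all probe sets with an annotated gene symbol of the immunoglobulin heavy locus (constant, variable or joining), of the kappa or lambda light chain loci, or of the joining chain gene Jchain. The rule found 52 of the 45037 probe sets on the array. Of these, 18 carried heavy chain constant symbols (Ighm, Igha, Ighg3), 24 kappa symbols, 4 lambda symbols, 1 the variable segment Ighv14-2, 1 Jchain, and 4 symbols of more than 1 class. A single symbol was given for 39 of the 52, and 13 had several symbols, so several probe sets could read the same transcript or share sequence. They are therefore not independent measurements, and those whose identifier ends in _x_at or _s_at were designed with probes that can bind more than 1 related transcript.

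Male Balb/c mice breathed for 4 h either an aerosol of superparamagnetic iron oxide nanoparticles (SPIO) or a humidified atmosphere of helium, oxygen and HEPA-filtered air with no particles, the sham control (CON). Lungs were taken 0, 6, 24, 48, 96 and 168 h later, with 5 mice in each of the 12 groups and 1 array per mouse. The study's methods state that lung function was measured by plethysmography in mice kept to 96 h, and that mice kept to 168 h were housed in metabolism cages on a liquid diet, so that differences between times may reflect handling as well as time. Age was not given in the labels, and RNA was taken from a single lobe of the right lung.

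An antibody is built of paired heavy and light chains, each with a variable segment that binds antigen and a constant region. Naive B cells carry IgM on their surface together with the signalling chains Cd79a and Cd79b, whereas plasma cells make large amounts of secreted heavy chain, light chain and, for IgA and pentameric IgM, the joining chain. In the lung and airways secreted IgA is carried across the epithelium by the polymeric immunoglobulin receptor Pigr.

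Levels are given as the deposited log2 intensities, in which a difference of 1 is a doubling of signal, and levels of different probe sets cannot be compared as amounts of RNA. The median log2 level of an array lay between 5.53 and 5.64. Of the 52 probe sets, 16 had a mean log2 level of at least 6 over the 60 arrays and 31 a mean below 5, toward the low end of the array. The brightest was the kappa probe set 1427660_x_at, whose symbols include the constant region Igkc, with a mean log2 level of 11.73 and a range of 10.90 to 12.54. Igha (1421653_a_at) averaged 11.30 (9.56 to 12.46), Ighm (1427351_s_at) 9.90 (8.30 to 12.32) and Jchain (1424305_at) 8.88 (7.53 to 10.02). Immunoglobulin probe sets varied between mice of a group more than most of the array: 23 of the 52 had a within-group SD above the 90th percentile of the 1000 probe sets nearest to them in mean level, and their median within-group SD was 0.24 against 0.19 for all probe sets. In RNA of a whole lobe, more cells of a type and more RNA per cell cannot be told apart.

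A pair of arrays stood apart from their labels. Control mouse 1 at 0 h had a log2 level of 14.02 for Alb, the albumin transcript of liver, and of 11.94 for Xist, the transcript of the inactive X chromosome of females. Albumin was not particular to this mouse, since 8 mice had a level of at least 9 (median over all mice 6.01, second highest 11.35). SPIO mouse 3 at 24 h had a mean log2 level of 5.60 for Y-linked genes, against 6.77 or more in the other mice. Its Xist level was 5.38, within the range of most mice. Control mouse 1 at 0 h had a Y-linked level of 7.35, so neither array had both a high Xist and a low Y-linked level. Both were among the highest of their groups for several antibody chains, so counts and calls were computed again without both, a setting chosen after seeing the data. The numbers of members changed at 0, 6, 24, 48, 96 and 168 h were then 2, 1, 2, 0, 3 and 2. The part of these arrays in the values below was not tested beyond leaving them out.

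Few immunoglobulin probe sets changed after SPIO inhalation. The share called was near that of the whole array at 0, 6 and 168 h and lower at 24, 48 and 96 h. In limma's test with Benjamini-Hochberg adjustment over all probe sets, the numbers changed at 0, 6, 24, 48, 96 and 168 h were 1, 1, 1, 0, 1 and 2 of the 52, beside 2.63%, 2.27%, 16.4%, 7.35%, 4.96% and 3.51% of all probe sets. With an unadjusted p under 0.05 in the same test they were 7, 8, 5, 2, 14 and 9, beside 16%, 12.1%, 28.4%, 21.2%, 17.5% and 16.9% of all. All 14 of those at 96 h were higher in SPIO mice (8.16% of all probe sets were higher by that rule). By direction, 1.92%, 1.92%, 1.92% and 3.85% of the 52 were called higher at 0, 24, 96 and 168 h. The shares of all probe sets were 1.36%, 10.9%, 0.953% and 0.564%. At 6 h 1.92% were called lower, beside 1.65% of all. A single call is 1.92% of the 52, and the array as a whole changed most at 24 and 48 h. Whether the share of the members differs from the array's rate was not tested at any time.

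Direction varied with time. SPIO minus CON differences were positive for 40, 16, 42, 12, 45 and 39 of the 52 at the 6 times in order, so that most lay below 0 at 6 and 48 h and above 0 at the others. Among the 16 brighter probe sets, 14, 2, 13, 3, 16 and 15 were higher in SPIO mice, with median log2 differences of 0.31, -0.35, 0.35, -0.23, 0.47 and 0.30. Over all 45037 probe sets the median difference stayed between 0.02 and 0.04, and the share with a positive difference between 53.8% and 60.1%. For all probe sets with a mean log2 level of at least 6 the median differences were -0.01, 0.02, 0.11, 0.08, 0.02 and -0.04. The signs of the 52 describe overlapping probe sets that moved together from mouse to mouse, and most of their single differences did not pass the test.

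The 1 member that changed at 0 h was 1455530_at, a probe set annotated to the heavy chain variable segment Ighv14-2 and called Ighv14-2 here after that annotation. Its target sequence was not used here, and whether it measures this segment was not tested. It was 4.92-fold higher in SPIO mice. Its log2 levels in the 5 control mice were 6.06, 5.00, 4.89, 4.98 and 4.71, and in the 5 SPIO mice 7.28, 7.04, 8.39, 7.08 and 7.33. Every SPIO mouse was above every control mouse. The log2 difference was 2.30 ± 0.45 (SE, n = 5 mice per group, limma adjusted p = 0.0020), and the exact permutation test gave its smallest possible two-sided p of 0.0079. Without control mouse 1, the array with high Alb and Xist, the difference was 2.53 (limma adjusted p = 0.0010), and without both arrays that stood apart it was 2.53 (limma adjusted p = 0.0011).

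Ighv14-2 was also the member that changed at 24 h, with a log2 difference of 1.37 ± 0.45 (SE, n = 5 mice per group, limma adjusted p = 0.029, exact permutation p = 0.016). Control levels were 6.44, 5.89, 4.83, 5.55 and 5.47, and SPIO levels 5.97, 8.35, 6.75, 7.28 and 6.67. SPIO mouse 1 lay within the control range and the other 4 above it. Without SPIO mouse 3, whose Y-linked level was low, the difference was 1.43 (limma adjusted p = 0.038), and without both arrays that stood apart 1.43 (limma adjusted p = 0.036). The call was lost on leaving out control mouse 3, 4 or 5 or SPIO mouse 2 or 4, with differences from 1.03 to 1.35 and limma adjusted p up to 0.14.

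At 6 h the groups overlapped. Control levels of Ighv14-2 were then 8.64, 8.03, 7.57, 6.59 and 6.10, and SPIO levels 6.96, 6.92, 7.38, 7.76 and 7.32. Both groups were above the control mice of 0 h. The log2 difference at 6 h was -0.12 ± 0.45 (SE, n = 5 mice per group, limma adjusted p = 0.97). Set against the difference at 0 h it was lower by 2.42 ± 0.64 on the log2 scale, which missed the threshold (limma adjusted p = 0.062).

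By 48 h and later Ighv14-2 was higher in SPIO mice on average without passing the test. At 48 h the control mice had 6.28, 5.30, 6.93, 5.54 and 5.29 and the SPIO mice 7.22, 5.26, 7.07, 7.08 and 6.92, a log2 difference of 0.84, with SPIO mouse 2 the lowest of all 10. At 168 h the control mice spread from 4.97 to 8.10 around a median of 7.06 and the SPIO mice from 6.64 to 8.05, a difference of 0.62. At 96 h the SPIO mice had 8.68, 8.22, 9.07, 7.93 and 8.46 and the control mice 7.99, 7.21, 5.83, 7.27 and 7.28, so that 4 of the 5 SPIO mice lay above all control mice. That difference was 1.36 (limma adjusted p = 0.067). Of the SPIO group means, 6.71 at 48 h was the lowest and 8.47 at 96 h the highest, whereas control means ran from 5.13 at 0 h to 7.39 at 6 h. Level differed over time in control mice (limma F test, adjusted p = 0.00027) and did not pass in SPIO mice (adjusted p = 0.12). The treatment-by-time interaction was not called (adjusted p = 0.12).

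The gene lists below are counted beside the share of all probe sets called in the same direction. That share was 1.36%, 0.617%, 10.9%, 5.41%, 0.953% and 0.564% higher, and 1.27%, 1.65%, 5.45%, 1.94%, 4.00% and 2.94% lower, at the 6 times in order (limma, adjusted p under 0.05).

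Genes of B cells were higher at the same times as Ighv14-2. Of 22 listed B cell genes 21 were measured, of which 13 rose at 0 h, 12 at 24 h and 3 by 96 h, with none lower at any time and no call at 6, 48 or 168 h (limma, adjusted p under 0.05). Its mean log2 level per mouse at 0 h ran from 5.47 to 5.97 in control mice and from 6.44 to 7.07 in SPIO mice, and at 6 h from 6.04 to 7.24 and from 6.45 to 6.84. The groups were thus apart at 0 h and overlapped at 6 h, as for Ighv14-2. The median log2 difference of the list was 0.90 at 0 h, -0.02 at 6 h and 0.71 at 24 h. Bank1, a scaffold of B cell receptor signalling, rose at 0 h by 2.15 ± 0.39 and Fcmr, the Fc receptor for IgM, by 2.11 ± 0.40 on the log2 scale (SE, n = 5 mice per group). At 24 h Pou2af1, a transcriptional coactivator of B cells, rose by 1.23 ± 0.33. The T cell list moved at the same times, with 6 of 12 measured genes higher at 0 h and 7 at 24 h, and its part in these results was not tested. Without both arrays that stood apart, 13 B cell genes rose at 0 h, of which 12 were also called with all arrays, 10 at 24 h and 2 at 96 h, and the T cell list had 4 at 0 h and 5 at 24 h. Bank1 then differed by 2.44 and Fcmr by 2.31 at 0 h, and Pou2af1 by 1.24 at 24 h, on the log2 scale and all still called by limma.

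The mouse-to-mouse pattern of Ighv14-2 was likest to that of genes mostly on the B cell list, a comparison chosen after its values were seen. Deviations of each mouse from its group mean were correlated over the 60 mice with those of all other genes with a single symbol. The genes most like Ighv14-2 were Fcmr (Pearson r = 0.97), Cd79b, a chain of the B cell receptor (r = 0.96), Bank1 (r = 0.93), Gpr18 (r = 0.92) and H2-Ob (r = 0.91), followed by Pou2af1, Ms4a1, Fcer2a, Rasgrp1 and Cd72 with r from 0.90 down to 0.88. Over the 21 B cell genes the median r was 0.86 (0.21 to 0.97). With the other immunoglobulin probe sets it had a median r of 0.04 (-0.24 to 0.54), and with Jchain r was -0.18. These r values do not show which transcript the probe set binds.

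The bright kappa probe sets did not pass the test at any time, and were highest in SPIO mice at 96 h. All 3 probe sets with the symbols that include Igkc separated the groups there, as did the variable segment probe sets 1451965_at and 1427799_x_at. Thus 5 of 52 had all SPIO mice above all control mice (2.06% of all probe sets), but the 3 Igkc probe sets share their symbols. On the dim 1427799_x_at (mean log2 level 3.33) the highest control mouse and the lowest SPIO mouse both read 3.52. For 1427660_x_at the control mice had 11.73, 11.81, 11.05, 11.75 and 11.91 and the SPIO mice 12.01, 12.36, 12.54, 11.94 and 12.06. The log2 difference was 0.53 ± 0.17 (SE, n = 5 mice per group, limma adjusted p = 0.057, exact permutation p = 0.0079). The 1427455_x_at probe set differed by 0.67 (limma adjusted p = 0.057) and 1452417_x_at by 0.52 (limma adjusted p = 0.16).

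Kappa levels lay the other way at 6 and 48 h, again without passing the test. At 48 h the difference with the smallest p among the 52 was that of 1452417_x_at, with control levels of 11.72, 11.62, 11.89, 11.40 and 11.27 and SPIO levels of 11.15, 11.06, 11.10, 11.25 and 10.51. All SPIO mice lay below all control mice, by 0.56 ± 0.21 on average (SE on the log2 scale, n = 5 mice per group, limma adjusted p = 0.089). For 1427660_x_at at 6 h the control mice had 12.13, 11.94, 11.76, 11.83 and 12.04 and the SPIO mice 11.54, 11.99, 11.81, 11.61 and 11.53, a log2 difference of -0.24 ± 0.17 (SE). Its difference was -0.27 at 48 h and 0.43 at 168 h, when the control mice had 11.28, 11.32, 11.16, 10.90 and 11.63 and the SPIO mice 11.50, 11.75, 11.92, 11.28 and 11.97. The 168 h control group held the lowest kappa level of the series. At 0 h control mouse 1 read 12.33 on this probe set and the other 4 control mice 11.30 to 11.40, while the SPIO mice ran from 11.46 to 12.21. The SPIO mice were thus above all control mice but the 1 that stood apart.

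Igha, the constant region of IgA, did not change by the test at any time and was lowest at 168 h. At 6 h the control mice had log2 levels of 12.16, 11.80, 11.75, 11.58 and 12.06 on 1421653_a_at and the SPIO mice 10.79, 11.58, 11.45, 11.31 and 10.93. The SPIO mice were below the control mice, narrowly for SPIO mouse 2, and the log2 difference was -0.66 ± 0.26 (SE, n = 5 mice per group, limma adjusted p = 0.21, exact permutation p = 0.0079). Along with Ighm 1452535_at and 1427851_x_at, whose symbols are a heavy variable segment and Ighm, Igha 1421653_a_at made 3 of 52 with all SPIO mice below all control mice at 6 h (2.56% of all probe sets). The groups overlapped on the other Igha probe sets. On 1425763_x_at the lowest control mouse had 10.96 and the highest SPIO mouse 11.02, and on 1429381_x_at 10.43 and 10.64. At 168 h control levels on 1421653_a_at were 11.36, 9.56, 10.54, 10.16 and 10.55 and SPIO levels 10.22, 11.28, 11.24, 9.97 and 10.97, a wide spread in both groups. At 96 h SPIO mice 2 and 3 had 12.46 and 12.18, the highest of all mice, and the other 3 SPIO mice, with 11.31, 11.29 and 11.44, lay inside the control range of 10.94 to 11.63.

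Jchain, which links IgA and IgM into polymers, was not called at any time. At 6 h control mice had 9.62, 9.22, 9.06, 9.29 and 9.72 and SPIO mice 8.54, 9.31, 8.89, 8.49 and 8.22. SPIO mouse 2 lay inside the control range and the other 4 below it. The log2 difference was -0.69 ± 0.30 (SE, n = 5 mice per group, limma adjusted p = 0.30, exact permutation p = 0.032). At 96 h the difference was 0.44 with the groups overlapping, and SPIO mice 2 and 3 had 10.02 and 9.89, among the highest of all 60 mice. The lowest Jchain level of the series, 7.53, was in SPIO mouse 2 at 24 h, the mouse with the highest Ighv14-2 level of its group.

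Probe sets annotated to Ighm, the constant region of IgM, differed in what they showed. The brightest, 1427351_s_at, had the largest within-group SD of the 52 (0.82 on the log2 scale) and its groups overlapped at every time, with log2 differences between -0.42 and 0.51. At 0 h its control levels were 12.32, 9.47, 10.65, 9.18 and 8.74, the first of them in the mouse that stood apart, and its SPIO levels 9.85, 10.42, 9.41, 10.70 and 8.97. The dimmer 1452535_at changed at 6 h. Its control levels were 6.00, 5.84, 7.05, 5.74 and 6.28 and its SPIO levels 5.62, 5.22, 5.70, 5.54 and 5.37, with all SPIO mice lower.

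The log2 difference of 1452535_at at 6 h was -0.69 ± 0.18 (SE, n = 5 mice per group, limma adjusted p = 0.024, exact permutation p = 0.0079). It was -0.47 (limma adjusted p = 0.20) without control mouse 3, and the call was also lost without control mouse 5 or SPIO mouse 2 or 5. At 48 h the same probe set stood at 6.06, 5.91, 5.93, 5.94 and 6.02 in control mice and 5.48, 5.95, 5.32, 5.63 and 5.38 in SPIO mice. There 4 of the 5 SPIO mice were below the control mice, and the difference of -0.42 did not pass (limma adjusted p = 0.15).

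A further Ighm probe set, 1427870_x_at, rose at 168 h and rested largely on 1 mouse. Control levels were 5.86, 5.83, 6.18, 5.88 and 6.35 and SPIO levels 6.61, 7.83, 6.36, 6.14 and 6.64. SPIO minus CON came to 0.70 ± 0.21 on the log2 scale (SE, n = 5 mice per group, limma adjusted p = 0.045, exact permutation p = 0.032), and it was 0.42 (limma adjusted p = 0.19) without SPIO mouse 2. Leaving out any of 7 of the 10 mice ended the call. The 7.83 of SPIO mouse 2 was the highest of the 60 mice, followed by 7.26 in SPIO mouse 3 at 24 h.

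The same SPIO mouse 2 at 168 h was also the highest of all mice on 3 other Ighm probe sets. It read 6.83 on 1425247_a_at, 6.44 on 1425324_x_at and 5.82 on 1427756_x_at, against medians over all mice of 4.94, 4.39 and 4.21. On each of these SPIO mouse 3 at 24 h came second, with 6.66, 5.74 and 5.80. On the brightest Ighm probe set the same mouse at 168 h read 10.15, within the range of its group.

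Igkv15-103 (1427837_at), a kappa variable segment, had the widest range of the 52. Its log2 level was 8.23 in control mouse 2 at 168 h and 3.92, 4.06, 4.17 and 3.98 in the other control mice of that time. Over the remaining mice of the series it lay between 3.56 and 4.82. The same control mouse had the lowest Igha level of the 60, at 9.56. With this mouse included, Igkv15-103 had the lowest difference of the 52 at 168 h, -1.01 on the log2 scale, without passing the test.

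Igkv9-120, another kappa variable segment, rose at 168 h on 1452536_s_at. Control levels were 4.25, 4.16, 4.39, 4.72 and 4.30 and SPIO levels 4.72, 4.83, 5.08, 4.82 and 5.02, with 1 control mouse reaching the lowest SPIO mouse. Its log2 difference of 0.53 ± 0.14 (SE, n = 5 mice per group, limma adjusted p = 0.022, exact permutation p = 0.016) passed. It was also the member called for a treatment-by-time interaction (limma F test, adjusted p = 0.0486), 1 of 52 against 3.69% of all probe sets. That count changed in 46 of the 60 runs that left out 1 mouse (0 to 4), was 0 with arrays centred on their medians, with a further quantile normalization and with the replicate block, and was 5 without both arrays that stood apart. The call at 168 h was lost without control mouse 1 or 2 or SPIO mouse 3 or 5. The other Igkv9-120 probe sets, 1460423_x_at and 1427750_at, were not called at 168 h, and their groups overlapped there. On 1460423_x_at control mice ran from 4.21 to 5.18 and SPIO mice from 4.40 to 5.67. On the dim 1427750_at control mice ran from 2.93 to 3.11 and SPIO mice from 2.84 to 3.05. Over all mice 1460423_x_at ranged from 3.76 to 6.68 and was highest in SPIO mouse 2 at 96 h.

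Lambda light chains, the less used light chain type of the mouse, were higher in SPIO mice on average at most times. Iglv1 changed at 96 h on 1427292_at, a probe set near the bottom of the array's range. Control levels were 3.37, 2.93, 2.97, 3.37 and 2.92 and SPIO levels 3.82, 3.68, 3.72, 3.35 and 3.58, with 4 of the 5 SPIO mice above all control mice. The difference of 0.52 ± 0.13 on the log2 scale passed (SE, n = 5 mice per group, limma adjusted p = 0.0103, exact permutation p = 0.024). The other Iglv1 probe sets were brighter and were not called at 96 h. There 1430523_s_at, with a mean log2 level of 6.57 over all mice against 3.18 for 1427292_at, differed by 0.06 (limma adjusted p = 0.95), and 1447918_x_at differed by 0.70 (limma adjusted p = 0.13).

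The constant region probe set 1424931_s_at, for Iglc1 and Iglv1, did not pass at any time. Its largest difference was 0.72 ± 0.34 on the log2 scale at 24 h (SE, n = 5 mice per group, limma adjusted p = 0.15). Also at 24 h, 1447918_x_at (Iglv1) was the 1 member of 52 whose groups did not overlap (5.95% of all probe sets were higher in this way), with a difference of 0.71 ± 0.27 (SE on the log2 scale, limma adjusted p = 0.062). Ighg3, the constant region of IgG3, had a range of 5.74 to 6.94 on 1427503_at and no call, its largest difference being 0.40 ± 0.14 at 168 h (SE on the log2 scale, limma adjusted p = 0.11). The remaining named constant probe sets, 1427758_x_at and 1427851_x_at with symbols of variable and constant heavy segments, had mean levels of 4.02 and 3.52 and no call.

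In control mice 13 of the 52, or 25%, changed over the 6 times, close to the 27.3% of all probe sets that did (limma F test, adjusted p under 0.05). Among them were all 3 Igha probe sets, Ighv14-2, Ighm 1452535_at and the Igkc probe sets. In SPIO mice 0 of 52 passed (3.83% of all probe sets), and 12 had an unadjusted p under 0.05 (15.3% of all). Without both arrays that stood apart the counts were 16 in control mice and 1 in SPIO mice. The mean over the 16 brighter probe sets, as a deviation from each probe set's median over all mice, was lowest in control mice at 168 h (-0.40 ± 0.23) and highest in SPIO mice at 96 h (0.52 ± 0.29), with control mice at 6 h at 0.32 ± 0.24 (SD on the log2 scale, n = 5 mice per group). Both SPIO mice 2 and 3 at 96 h, with 0.77 and 0.87, were above all other mice, and control mouse 5 at 0 h was lowest at -0.74.

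Several antibody chains varied together from mouse to mouse. Over the 60 mice, as deviations from group means, Jchain correlated with kappa 1427660_x_at (Pearson r = 0.79, adjusted p = 6.6e-05, Spearman rho = 0.82, adjusted p = 8.25e-05, permutation tests within groups) and with Igha (r = 0.77, adjusted p = 6.6e-05, rho = 0.80, adjusted p = 8.25e-05, permutation tests). Raw p values were 1e-05, the smallest these permutations can give, and 33 relations were computed in all. Without the 2 mice farthest from the median the r values were 0.78 and 0.82. Within arms, Igha and Jchain had r = 0.48 in control mice and r = 0.94 in SPIO mice, a difference that was not tested.

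Ighm correlated with Jchain (r = 0.61, rho = 0.61) and with kappa (r = 0.66, rho = 0.59), and kappa with lambda 1424931_s_at (r = 0.59, rho = 0.54), with adjusted permutation p values between 6.6e-05 and 0.0005. Without the 2 farthest mice these r values were 0.55, 0.59 and 0.47. In control mice alone they were 0.66, 0.69 and 0.79, and in SPIO mice alone 0.62, 0.62 and 0.27. The difference between arms was not tested. Igha and Ighm were weakly related (r = 0.26, adjusted p = 0.093, rho = 0.34, adjusted p = 0.030, permutation tests). Mzb1, a chaperone of antibody assembly in plasma cells and innate-like B cells, correlated with lambda (r = 0.59, rho = 0.61) and kappa (r = 0.51, rho = 0.50, adjusted permutation p = 0.00025 for r) but did not pass with Jchain (r = 0.14, rho = 0.20, adjusted permutation p = 0.38 for r). Nor did Mzb1 pass with Igha (r = 0.20), Ighm (r = 0.18) or Ighg3 (r = 0.004), with adjusted permutation p of 0.32, 0.26 and 0.98 for r. The relations of Mzb1 with lambda and kappa had r of 0.57 and 0.43 without the 2 farthest mice. No relation of these 6 chains with Cd79a or with Cd3e, a chain of the T cell receptor complex, passed.

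To set the probe sets on 2 scales, each was correlated over the 60 mice with Jchain and with the mean of the B cell list, as deviations from group means. The brighter probe sets were spread between the 2. Of 15 brighter members other than Jchain, 9 had r over 0.5 with Jchain and 2 with the B cell list. Ighv14-2 had the highest r with the B cell list, 0.97, and the next was 0.58, for the dim Iglv1 1427292_at. The 3 Igha probe sets had r of 0.73 to 0.77 with Jchain and -0.08 to -0.02 with the B cell list. These r values are descriptions that share the same 60 arrays.

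Outside the immunoglobulin loci, the genes most like Jchain over the 60 mice were Mpc1, a mitochondrial pyruvate carrier (r = 0.65), the respiratory chain subunits Ndufb8 (r = 0.65) and Ndufa5 (r = 0.65) and cytochrome c, Cycs (r = 0.64). Ndufa12, Atp5o, Atp5j2, Uqcrb, Me1 and Ndufc1 followed with r from 0.64 down to 0.63. None of the 10 belonged to the plasma cell list.

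Genes of plasma cells gave a mixed picture. Of 14 measured, 1 rose at 0 h, 4 at 24 h and 2 at 96 h, whereas 1 fell at 24 h, 3 at 48 h and 1 at 168 h. Those that rose included Tnfrsf13b, the receptor TACI that binds B cell survival factors, by 1.03 ± 0.21 at 0 h, 1.09 ± 0.21 at 24 h and 0.73 ± 0.21 at 96 h, and Mzb1, by 0.66 ± 0.17 at 24 h and 0.72 ± 0.17 at 96 h (SE on the log2 scale, n = 5 mice per group). At 48 h the genes that fell were Edem1, Xbp1 and Fkbp11, which serve protein folding and disposal in the endoplasmic reticulum of many cell types, with Xbp1 at -0.28 ± 0.07. Without both arrays that stood apart 2 genes rose at 0 h, where Mzb1 was added at 0.62 (limma adjusted p = 0.0497), and the calls at the other times were unchanged.

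Among 11 genes of immunoglobulin transport and Fc receptors, the number that rose at 0, 24, 48 and 96 h was 1, 3, 1 and 2, with no call at 6 or 168 h and none lower. Besides Fcmr these were Fcer1g, the shared signalling chain of Fc receptors, which rose at 24 h by 0.84 ± 0.14, Fcgr2b, the inhibitory IgG receptor, by 0.71 ± 0.16 at 24 h, and Fcgr4, an activating IgG receptor, by 0.68 ± 0.20 at 48 h and 0.79 ± 0.20 at 96 h (SE on the log2 scale, n = 5 mice per group). Pigr was not called, with a log2 difference of 0.91 ± 0.35 at 6 h (SE, n = 5 mice per group, limma adjusted p = 0.20). Igha and Jchain averaged lower in SPIO mice at 6 h and also at 48 h, where Jchain differed by -0.52. A relation of Pigr to these chains was not tested.

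Of 12 genes that attract or sustain B cells, 1 rose at 24 h (Ltb, lymphotoxin beta), 1 fell at 48 h (Cxcl12, a chemokine for B cells and plasma cells) and 1 rose at 96 h (Lta, lymphotoxin alpha). The 6 measured genes of pre-B cells and recombination had calls at 96 h alone, where Rag1 (0.41 ± 0.09) and Vpreb3 (0.50 ± 0.14) rose on the log2 scale. Of 12 genes of thymus and lymph node, 1 rose at 96 h and 1 fell at 24 h. The gene that rose was again Rag1, which is on both lists. Of 6 genes listed for class switching and mutation, 1 rose at each of 0, 6, 24 and 96 h. At 0 and 6 h it was Nfkbiz, and at 24 h Ung, the uracil glycosylase of base repair, by 0.55 ± 0.12. Without both arrays that stood apart the calls of Ltb and of Foxn1, of the thymus and lymph node list, at 24 h and of Nfkbiz at 0 h were lost.

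Markers of liver differed between single mice rather than between groups, with no call for the 8 listed hepatocyte genes at any time. Their mean log2 level ran from 4.37 to 10.22 in control mice and from 4.50 to 7.08 in SPIO mice at 0 h. Of 4 measured erythroid genes, 1 rose at 24 h (Fech, the last enzyme of heme synthesis), a call lost without both arrays that stood apart.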

How the data were processed

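RNA of a single right lung lobe from each of 60 mice was hybridized to 1 Affymetrix mouse array. The authors deposited log2 values normalized by RMA for 45101 probe sets; no version of RMA was given in the sources used here. Leaving out 64 control probe sets left 45037. All columns matched a sample. Arrays have no read depth, so precision rests on 5 mice per group. SPIO was compared with CON at each time in 1 limma fit over 12 groups (48 residual degrees of freedom, R 4.3.3, limma 3.58.1), with Benjamini-Hochberg adjustment over all probe sets and a threshold of 0.05. The same fit gave F tests of time in each arm and of the interaction. The study's methods used an unequal-variance ANOVA with Tukey's test, run as an alternative. Single values also had a two-sided exact permutation test over 252 divisions of 10 mice, and correlations had 100000 permutations within groups (Python 3.11.15). The script was tested on simulated data.

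Gene symbols came from the platform annotation. Probe sets named in the text were Jchain and the brightest constant-region probe set of each set of symbols, those past the threshold at a time or the 3 with the smallest p where none passed, the 5 with the widest range and the 5 with the largest within-group SD, the 10 genes most like Jchain, and the up to 4 genes with the smallest p per list and time. Members and gene lists were chosen with earlier results of these data known. A gene with several probe sets was taken by the brightest for the lists. Alternatives tried were each time alone, other normalizations, a filter on dim probe sets (log2 level of at least 6 in at least 5 arrays), 1 probe set per gene, a trended robust moderation, weights per array, the replicate number as a block, the study's own test, _x_at and _s_at probe sets left out, and each mouse left out. Leaving out both arrays that stood apart was added after seeing the data. Labels call the mice biological replicates; litters and cages are not given.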

Additional observations from a re-analysis of the deposited data

Results flagged for a closer look

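Of 216 groups of 5 mice examined over the 18 named probe sets, 22 held a mouse far from the other 4 by Dixon's test, against 10.8 by chance at 1 in 20. Overlapping probe sets repeat some of these. Control mouse 1 at 0 h was high in kappa 1427660_x_at (12.33) and 1452417_x_at (11.89), Jchain (9.92) and Ighv14-2 (6.06). Control mouse 3 at 96 h was low in the same kappa probe sets (11.05 and 10.51) and Igha (10.94), while at 96 h control mouse 5 was high in Ighg3 (6.94) and control mouse 2 in Ighm 1452535_at (5.84). SPIO mouse 5 at 48 h was low in 1452417_x_at (10.51).

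Ighv14-2 had a high SPIO mouse 3 at 0 h (8.39) and a low SPIO mouse 2 at 48 h (5.26). At 48 h SPIO mouse 3 was low in Ighg3 (5.91) and SPIO mouse 4 high in Igkv9-120 1460423_x_at (5.51). At 96 h SPIO mouse 2 was high in both Igkv9-120 probe sets (6.68 and 5.30) and SPIO mouse 4 low in 1424931_s_at, for Iglc1 and Iglv1 (6.28).

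Igkv15-103 stood out in control mouse 4 at 24 h (4.62), control mouse 2 at 168 h (8.23), SPIO mouse 2 at 48 h (low, 3.88) and SPIO mouse 2 at 96 h (4.82). Iglv1 1427292_at was low in control mouse 1 at 168 h (2.40).

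Igkv9-120 1452536_s_at differed in its SPIO minus CON difference between times (limma interaction F test, adjusted p = 0.0486).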

How the results depend on the processing

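Ighv14-2 at 0 h passed under all alternatives run. Counts of changed members moved as follows. At 0 h, 2 with array weights. At 6 h, 0 with each time fitted alone and with 1 probe set per gene. At 24 h, 2 with a further quantile normalization, with dim probe sets left out and with 1 probe set per gene, and 0 by the methods' test. At 48 h, 3 with array weights. At 96 h, 2 with each time alone, quantile normalization and the dim filter, 3 with arrays centred on their medians and with array weights, and 0 with 1 probe set per gene and by the methods' test. At 168 h, 1 with each time alone and the dim filter, and 0 with 1 probe set per gene, by the methods' test and without _x_at and _s_at probe sets. For the interaction, 0 with centring, quantile normalization and the replicate block, 3 with the dim filter and 9 with array weights. The causes were not tested. Leaving out 1 mouse gave 1 to 2 at 0 h, 0 to 1 at 6 h, 0 to 3 at 24 h, 0 at 48 h, 1 to 3 at 96 h and 0 to 3 at 168 h, 0 to 4 for the interaction, and for time 9 to 15 in CON and 0 to 1 in SPIO. Leaving out control mouse 1 gave 2 at 0 h. Leaving out both arrays that stood apart gave 2 at 0 h, 2 at 24 h, 3 at 96 h, 5 for the interaction and 1 for time in SPIO.

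Same-numbered mice did not deviate together (30 pairs, r from -0.40 to 0.37, 7 over 0.1, 6 exposed mice closest to their own number). With the replicate block the counts were 1, 1, 1, 0, 1 and 2 at the 6 times, and 12 for time in CON.

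Of 511 recomputed values, 376 stayed on their side of the threshold or within the margin for counts and 135 did not (88 no longer passed or were counts that fell to 0, 44 were counts or medians that moved, and 3 newly passed or rose from 0). No direction reversed. Probe sets below a mean log2 level of 5 have little room to show a decrease.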
